A study of Mus musculus with 6 samples.

Results

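The subject is 10 genes of the Notch pathway in cultured fetal mouse lung cells, taken by name from the 31053 Ensembl gene identifiers of the count tables. They are the 4 receptor genes Notch1, Notch2, Notch3 and Notch4, the ligand genes Dll1, Dll4, Jag1 and Jag2, and the target genes Hes1 and Hey1. Each name matched 1 identifier, and all 10 passed the filter on low counts. Lungs of wild-type C57BL6 fetuses were taken at E17, digested with liberase, frozen in DMSO and plated on diluted Matrigel, a basement membrane extract. Every well received a medium for haematopoietic stem and progenitor cells, with mTPO, IL6, SCF, FGF, VEGF and Flt3, and was washed on day 3. The suspension group is the floating cells collected on culture days 4, 5 and 6, and the adherent group is the attached cells of the same days, detached with accutase and sorted to enrich live VE-cadherin-positive cells, VE-cadherin being an adhesion protein of endothelium. There were 3 libraries per group, 1 for each day, prepared by 10x 3' v3 chemistry, which counts transcripts from their 3' ends. The groups therefore differ in sorting and detachment as well as in attachment, and there was no unsorted adherent library.

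Notch receptors are membrane proteins that are activated by ligands on a neighbouring cell. Ligand binding lets the protease ADAM10 and then the gamma-secretase complex cut the receptor, and the freed intracellular part enters the nucleus, binds the DNA-binding protein RBPJ and switches on genes such as those of the HES and HEY repressors. In the vasculature, DLL4 and NOTCH4 are known from endothelium and NOTCH3 from the mural cells around it, and NOTCH1 is known to be required when the first blood stem cells form from embryonic endothelium.

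Each table sums a whole library with no division by cell, and levels are given as CPM, a gene's counts after TMM scaling of the library totals. Library totals lay between 36451255 and 57784974 counts, and a level of 3 counts corresponded to 0.0594 to 0.0756 CPM. In such sums, fewer cells of a type and less RNA per cell cannot be told apart. Of 10 endothelial marker genes, all 10 were lower in suspension, beside 29.7% of all genes tested. They summed to 16.0 to 24.7 CPM there, against 611 to 1553 CPM in adherent libraries. None was at 0 in all libraries of a group. In suspension, though, Emcn had 0, 0 and 1 counts on days 4, 5 and 6, and Cldn5, Tek and Tie1 had none on day 6. Esam and Ramp2 had 4 and 9 counts on that day. All of these passed the filter on low counts through the adherent libraries, so the count of lower markers is a description only. The adherent libraries also held fibroblast genes at 1480 to 2299 CPM, mural cell genes at 690 to 3163 CPM, epithelial genes at 324 to 1380 CPM and macrophage genes at 2329 to 5831 CPM. Neutrophil genes summed to 25429 to 77616 CPM in suspension and 225 to 978 CPM in adherent libraries. Of them 8 of 8 were higher in suspension, beside 27.1% of all genes tested. Lymphoid genes summed to no more than 40.0 CPM in suspension and 8.29 CPM in adherent libraries, with Cd3e at 0 in both groups and Cd3d and Rag1 also at 0 in adherent libraries.

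Across the fractions, 8 members were lower in suspension, 1 was higher and 1 did not pass the test (quasi-likelihood test of edgeR, p-values adjusted by Benjamini-Hochberg over 14912 genes tested, threshold 0.05). All 4 ligand genes and both target genes were among the 8, with Notch3 and Notch4. Notch1 was the member that was higher in suspension, and Notch2 the one that did not pass. Over all genes tested, 27.1% were higher and 29.7% lower in suspension, 56.8% together, so calls in either direction were common. Of the 8 lower members, Notch4, Dll1, Dll4, Jag2 and Hey1 had fewer than 10 counts in at least 1 suspension library. They passed the low-count filter through the adherent libraries. So did Notch3, which had 12 counts in suspension day 6, the largest library. The count of lower members is therefore a description only. Suspension and adherent libraries were separate, with no overlapping value, for 9 of the 10 members, against 67.8% of all genes tested. The median log2 ratio of suspension to adherent was -3.64 over the members and -0.0025 over all genes tested. The separation and the median include the members that passed the filter through the adherent libraries, so they too are descriptions only.

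**Figure D1:**
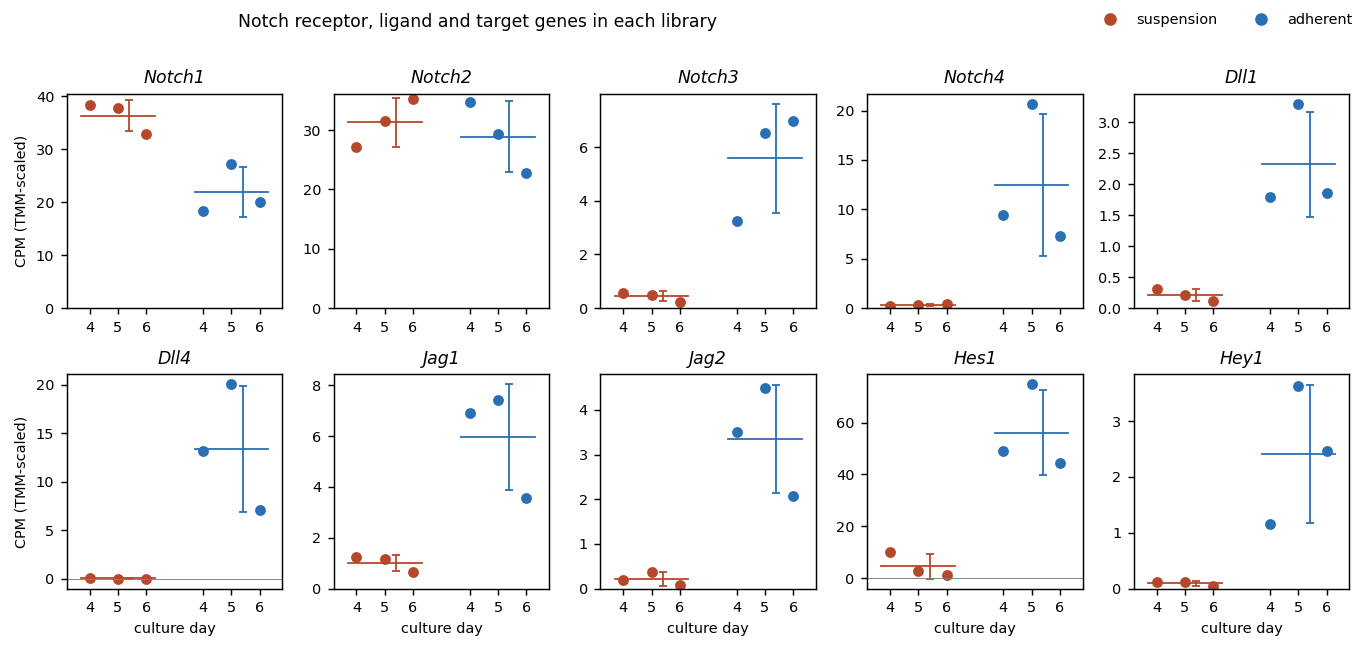
Level of each member in CPM (TMM-scaled, linear axis) in the suspension libraries (red, left) and the adherent libraries (blue, right) of culture days 4, 5 and 6; lines are group means and bars the SD of 3 libraries. Notch1 is higher in every suspension library, Notch2 overlaps between the groups, and the other 8 genes lie near the bottom of their panel in suspension.

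The windows in front of the transcription starts of 4 genes are shown because these genes lie at the ends of the contrast: Dll4 and Notch4 had the members' lowest ratios, Notch1 was the member that was higher, and Lfng, a glycosyltransferase of the receptors, was the most raised of the other pathway genes. Each is the 250 bases before a RefSeq start in GRCm38.p6, the assembly also called mm10, written in the direction of the gene. They lie at chr2:119325534-119325783 on the plus strand for Dll4, chr17:34564045-34564294 on the plus strand for Notch4, chr2:26503823-26504072 on the minus strand for Notch1 and chr5:140607091-140607340 on the plus strand for Lfng. Capitals mark the core of the RBPJ motif, TGGGAA, or its reverse complement TTCCCA.
Dll4: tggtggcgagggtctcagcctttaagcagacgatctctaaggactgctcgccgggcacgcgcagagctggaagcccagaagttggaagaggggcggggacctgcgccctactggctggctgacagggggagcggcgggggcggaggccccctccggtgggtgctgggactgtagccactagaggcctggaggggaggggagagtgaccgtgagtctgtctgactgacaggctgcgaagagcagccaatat
Notch4: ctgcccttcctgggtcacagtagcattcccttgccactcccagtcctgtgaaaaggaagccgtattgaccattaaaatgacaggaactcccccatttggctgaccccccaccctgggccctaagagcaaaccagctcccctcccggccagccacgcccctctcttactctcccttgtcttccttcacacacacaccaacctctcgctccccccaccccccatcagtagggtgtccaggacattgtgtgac
Notch1: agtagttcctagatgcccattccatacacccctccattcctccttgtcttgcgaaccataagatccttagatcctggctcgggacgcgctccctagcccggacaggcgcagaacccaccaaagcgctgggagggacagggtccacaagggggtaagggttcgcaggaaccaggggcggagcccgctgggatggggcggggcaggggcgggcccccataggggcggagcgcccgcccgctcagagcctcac
Lfng: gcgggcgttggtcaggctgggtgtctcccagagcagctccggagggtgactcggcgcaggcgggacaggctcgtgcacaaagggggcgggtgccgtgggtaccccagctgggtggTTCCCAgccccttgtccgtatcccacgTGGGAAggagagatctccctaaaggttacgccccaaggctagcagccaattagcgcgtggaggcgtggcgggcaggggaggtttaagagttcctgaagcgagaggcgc

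RefSeq windows were found for 8 of the 10 members, 9 windows in all, and none of them held TGGGAA on either strand. The target genes Hes1 and Hey1 had no window, so they were not searched for either motif. That sequence occurred in 21.6% of the 32817 mouse windows of this length. The palindrome CACGTG, an E-box that HES and HEY proteins are known to bind, was likewise in none of the members' windows and in 6.02% of all windows. No match says only that these letters are not in the window. Of 35 other pathway genes with a window, 13 held TGGGAA and 4 held CACGTG. The Lfng window had 2 RBPJ cores, 135 and 108 bases before the start, and a CACGTG at 112 that overlaps the nearer core.

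Among the receptors, Notch1 (ENSMUSG00000026923, mm10 chromosome 2, 26457903 to 26516663, minus strand) was at 38.3, 37.8 and 33.0 CPM in the suspension libraries of days 4, 5 and 6 and at 18.4, 27.3 and 19.99 CPM in the adherent ones. Every suspension library was above every adherent library. The means were 36.4 ± 2.95 and 21.9 ± 4.72 CPM (SD, n = 3 each), a log2 ratio of 0.73 ± 0.17 (approximate SE) with an adjusted p of 0.0109 by edgeR's quasi-likelihood test. NOTCH1 is known in blood for the choice of the T cell fate. The 3 lymphoid markers tested, Il7r, Cd79b and Cd3d, were likewise higher in suspension, as were 27.1% of all genes tested. Il7r, a cytokine receptor gene of lymphoid cells, had 35.02, 23.3 and 19.3 CPM in suspension and 2.56, 6.93 and 7.08 CPM in adherent libraries. The part of lymphoid cells in the Notch1 level was not tested. Notch2 (ENSMUSG00000027878, chromosome 3, 98013527 to 98150361, plus strand), known for its part in splenic B cells and in monocyte subsets, had 27.1, 31.6 and 35.3 CPM in suspension and 34.7, 29.3 and 22.7 CPM in adherent libraries. The groups overlapped, with the highest level on day 6 in suspension and on day 4 in adherent libraries. Its log2 ratio was 0.12 ± 0.18 (adjusted p = 0.617), and the sign turned without suspension day 6 (-0.01) or adherent day 6 (-0.03).

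Notch3 (ENSMUSG00000038146, chromosome 17, 32120820 to 32166852, minus strand) had 0.58, 0.50 and 0.24 CPM in suspension and 3.25, 6.52 and 6.97 CPM in adherent libraries. All adherent libraries stood above all suspension libraries, and the adherent library of day 4 was the lowest of its group. The log2 ratio was -3.67 ± 0.47 (adjusted p = 0.00136). The summed mural markers in adherent libraries, 3163, 690 and 904 CPM on days 4, 5 and 6, were highest on day 4. Within that list Pdgfrb, at 32.8, 36.7 and 54.2 CPM, and Rgs5, at 0.60, 1.66 and 12.2 CPM, were lowest on day 4 like Notch3. The others, Cspg4, Acta2, Tagln, Myh11, Cnn1 and Des, were highest on day 4. The summed fibroblast markers, at 1480, 2299 and 2268 CPM in adherent libraries, were also lowest on day 4. The part of mural cells or fibroblasts in the Notch3 level was not tested.

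Notch4 (ENSMUSG00000015468, chromosome 17, 34564268 to 34588503, plus strand) had 0.22, 0.36 and 0.40 CPM in suspension, from 9, 15 and 20 counts, and 9.39, 20.7 and 7.27 CPM in adherent libraries. The groups did not overlap, and the adherent library of day 5 was the highest. Its mean was 38.4 times as high in adherent as in suspension libraries, with a log2 ratio of -5.24 ± 0.53 (adjusted p = 0.000697), or -4.42 with reads on either strand.

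All 4 ligand genes were lower in suspension, and Dll4 was nearly absent there. Dll4 (ENSMUSG00000027314, chromosome 2, 119325784 to 119335962, plus strand), a ligand of sprouting and arterial endothelium, had 3, 0 and 0 counts in the suspension libraries and 569, 796 and 303 counts in the adherent ones. In adherent libraries these are 13.1, 20.05 and 7.06 CPM. The ratio of adherent to suspension was 590, with a counting interval at 95% from 202 to 2866, and the adjusted p was 0.000643. The interval pools reads over the libraries of each group and covers neither repeat reads of the same molecule nor the spread between libraries. The fitted log2 ratio of -9.04 ± 0.87 depends on the prior count, and was -12.22 without suspension day 4, which held all 3 suspension counts, and -8.45 without suspension day 6. A count of 0 allows a level of up to 0.0715 CPM on day 5 and 0.0594 CPM on day 6, so absence in suspension is not shown.

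Jag1 (ENSMUSG00000027276, chromosome 2, 137081456 to 137116644, minus strand), a ligand of many tissues, vascular walls included, had 1.23, 1.14 and 0.63 CPM in suspension and 6.90, 7.43 and 3.56 CPM in adherent libraries. The groups did not overlap, and day 6 was the lowest in both. Its log2 ratio of -2.57 ± 0.40 (adjusted p = 0.00262) was the smallest in size among the ligands. Jag2 (ENSMUSG00000002799, chromosome 12, 112907819 to 112929776, minus strand) had 0.19, 0.38 and 0.08 CPM in suspension, from 8, 16 and 4 counts, and 3.51, 4.48 and 2.07 CPM in adherent libraries. Dll1 (ENSMUSG00000014773, chromosome 17, 15367354 to 15376872, minus strand), a ligand best known from somites and from splenic B cell development, had 0.31, 0.21 and 0.12 CPM in suspension and 1.80, 3.30 and 1.86 CPM in adherent libraries. Neither gene overlapped between the groups. Their log2 ratios were -3.95 ± 0.61 for Jag2 (adjusted p = 0.00243) and -3.42 ± 0.48 for Dll1 (adjusted p = 0.00179). The Jag2 ratio was -4.66 without suspension day 5, and the Dll1 ratio -4.40 with reads on either strand.

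The make-up of the receptor counts and of the ligand counts was also compared between the fractions. The shares need no scaling between libraries. Counts of 3' ends are not divided by gene length, so each share is compared between libraries and not between genes. Notch1 took 57.9%, 53.8% and 47.8% of the counts of the 4 receptor genes in suspension and 28.0%, 32.5% and 35.1% in adherent libraries. Notch4 took 0.33%, 0.51% and 0.57% in suspension and 14.3%, 24.7% and 12.8% in adherent libraries. Notch3 took 0.645% ± 0.273 in suspension and 8.32% ± 3.68 in adherent libraries, and Notch2 45.7% ± 5.20 and 42.6% ± 9.19 (SD, n = 3 each). The shares of Notch1, Notch3 and Notch4 did not overlap between the groups and that of Notch2 did.

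Among the ligands, Dll4 took 4.00%, 0% and 0% of the counts in suspension and 51.8%, 56.9% and 48.5% in adherent libraries. Jag1 took 68.0%, 65.8% and 76.2% in suspension and 27.2%, 21.1% and 24.5% in adherent libraries. The suspension shares rest on 75, 73 and 42 ligand counts in all, against 1098, 1400 and 625 in adherent libraries. Dll1 averaged 14.6% ± 2.52 in suspension and 9.75% ± 2.87 in adherent libraries, and Jag2 14.0% ± 6.85 and 13.6% ± 0.792 (SD, n = 3 each). With 3 libraries against 3 the exact two-sided permutation test cannot give a p below 0.1, and it gave that value for Notch1, Notch3, Notch4, Dll4 and Jag1 (0.16 after Benjamini-Hochberg adjustment over 8 shares). The exact permutation p was 0.2 for Dll1, 0.7 for Notch2 and 1 for Jag2 (adjusted 0.267, 0.8 and 1), so no share passed a threshold of 0.05.

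**Figure D2:**
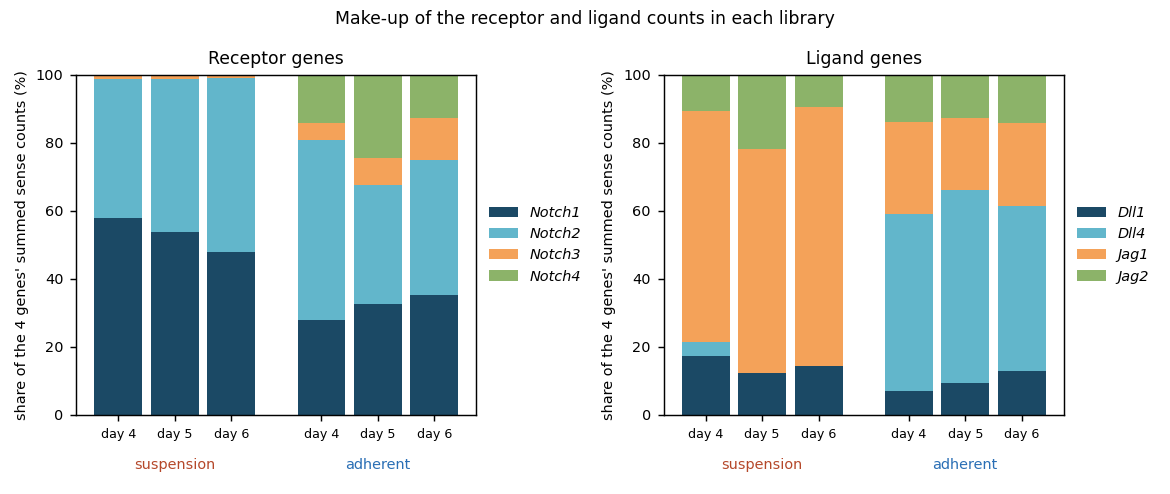
Share of the summed sense counts of the 4 receptor genes (left panel) and of the 4 ligand genes (right panel) taken by each gene, in percent, in suspension and adherent libraries of each culture day. The shares of Notch1 and Jag1 are higher in every suspension library than in any adherent library, and those of Notch3, Notch4 and Dll4 are lower; with 3 libraries against 3, no share passed the test.

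The receptor genes together gave 66.2, 70.3 and 68.9 CPM in suspension and 65.8, 83.8 and 56.9 CPM in adherent libraries, so their sums overlapped. The ligand genes together gave 1.82, 1.74 and 0.83 CPM in suspension and 25.3, 35.3 and 14.6 CPM in adherent libraries, with no overlap. These sums were not tested.

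Both target genes were lower in suspension. Hes1 (ENSMUSG00000022528, chromosome 16, 30064384 to 30067796, plus strand), a repressor that is also under the control of other pathways, had 10.2, 2.57 and 1.09 CPM in suspension and 49.1, 74.8 and 44.4 CPM in adherent libraries. All adherent libraries were above all suspension libraries, and the suspension library of day 4 stood well above those of days 5 and 6. Its log2 ratio of -3.61 ± 0.81 (adjusted p = 0.00949) was -4.98 without suspension day 4. Hey1 (ENSMUSG00000040289, chromosome 3, 8663359 to 8667256, minus strand), a repressor of arterial endothelium, had 5, 5 and 2 counts in suspension and 50, 144 and 106 counts in adherent libraries. These are 0.12, 0.12 and 0.04 CPM against 1.15, 3.63 and 2.47 CPM, with no overlap and a log2 ratio of -4.68 ± 0.64 (adjusted p = 0.00163). The call of each of the 9 members held in every alternative in which the gene was tested, 13 or 14 per gene. The filter at 10 CPM or more in 3 libraries tested only Notch1, Notch2 and Hes1, so it could not change the other calls. For members that passed the main filter through the adherent libraries, this stability is a description only.

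Over the culture days the members showed few calls. No member had a slope common to both fractions that passed, 1 had an unadjusted p under 0.05, and 0.0134% of all genes tested passed. In adherent libraries 1 of 10 members fell, where 3.52% of all genes did and 7.75% rose. That member was Notch2, whose level fell by 0.31 ± 0.06 log2 per day (adjusted p = 0.0405). The call was lost without any one of the suspension libraries, which leaves fewer residual degrees of freedom (adjusted p from 0.0820 to 0.0845), as it was after leaving out adherent day 4 (0.216) or adherent day 6 (0.361). Without adherent day 4, 1 member was still called falling, but it was not Notch2. In suspension the Notch2 slope was 0.19 ± 0.06 (adjusted p = 0.231), and the difference of the slopes, 0.50 ± 0.09, did not pass (adjusted p = 0.0810).

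No member passed the test for a slope in suspension, where 0.402% of all genes fell and 0.0939% rose, with 2 members at an unadjusted p under 0.05. After Dll4, which had 0 counts on both later days, the largest slope was that of Hes1, -1.65 ± 0.24 log2 per day (adjusted p = 0.0668), from 420, 108 and 55 counts. DESeq2 called 1 member falling in suspension, Hes1 (adjusted p = 9.64e-09), and so did the same edgeR test with no filter on low counts (0.00068) or without any one adherent library (0.00505 to 0.0052). In adherent libraries the Hes1 slope was -0.07 ± 0.21 (adjusted p = 0.856). The difference of its slopes, -1.58 ± 0.32, did not pass (adjusted p = 0.0954). For the slope difference 0 members and 0.516% of all genes passed (0.0536% higher and 0.463% lower in suspension), and 3 members had an unadjusted p under 0.05. Beside Hes1 in suspension, the summed epithelial markers were at 240, 36.9 and 13.7 CPM on days 4, 5 and 6 and the summed mural markers at 125, 22.1 and 9.39 CPM, while the endothelial markers were at 24.7, 19.4 and 16.0 CPM. The part of these cells in the Hes1 levels was not tested.

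Within the adherent libraries, the levels of the members were set beside the endothelial markers. The sum of the 10 endothelial markers was highest on day 5 and spanned 2.54-fold over the days, at 767, 1553 and 611 CPM. Notch4 spanned 2.84-fold in CPM but was at 1.22%, 1.33% and 1.19% of the endothelial sum on days 4, 5 and 6, a span of 1.12-fold. Dll4 was at 1.71%, 1.29% and 1.16%, Dll1 at 0.235%, 0.213% and 0.305% and Jag2 at 0.457%, 0.289% and 0.339%. Hes1 was at 6.40%, 4.82% and 7.26% of that sum, Notch1 at 2.40%, 1.76% and 3.27%, Notch2 at 4.53%, 1.89% and 3.71% and Jag1 at 0.899%, 0.479% and 0.583%. For Notch2 the span was wider relative to the endothelial sum, 2.40-fold, than in CPM, 1.53-fold. Notch3 was at 0.424%, 0.420% and 1.14%, and Hey1 at 0.150%, 0.234% and 0.404%. These spanned 2.71-fold and 2.69-fold. Notch1, Notch3, Dll1, Hes1 and Hey1 were highest on day 6 in this measure. Each day is 1 library, so these ratios carry no test.

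**Figure D3:**
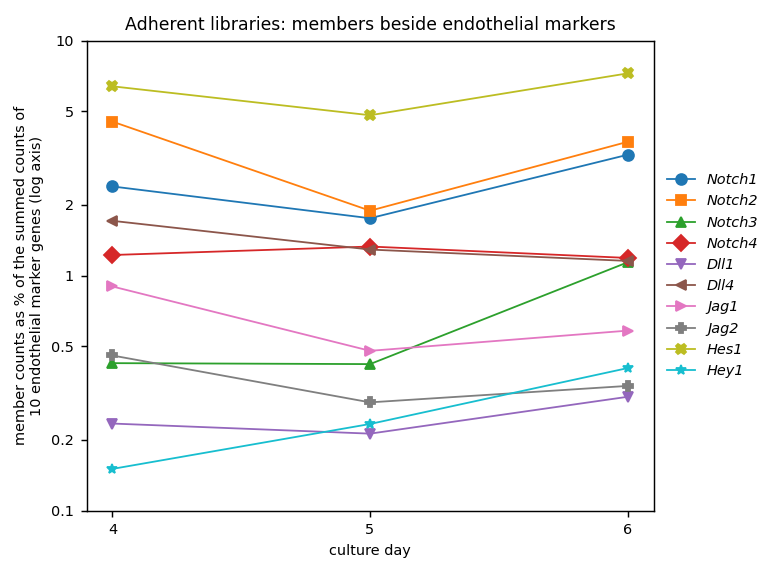
Counts of each member in the adherent libraries of culture days 4, 5 and 6 as a percentage of the summed counts of 10 endothelial marker genes (log axis). Each point is 1 library, with no error; Notch4 stays between 1.19% and 1.33%, whereas Notch3 and Hey1 span 2.71-fold and 2.69-fold.

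Genes known from arterial endothelium, where Notch signalling is active, were listed beside the members. Of 7 tested, 4 were lower in suspension and 1 was higher, beside 29.7% lower and 27.1% higher over all genes tested. The lower ones were Sox17, Efnb2, Unc5b and Sema3g. Sox17, with 0, 0 and 1 suspension counts, and Sema3g, with 1 in each library, passed the filter on low counts through the adherent libraries. Gja5 and Nrp1 did not pass, and Gja4 had too few counts to be tested. Gja5 had 0.46, 0.33 and 0.26 CPM in suspension and 0.05, 0.25 and 1.14 CPM in adherent libraries, which overlapped. Efnb2, an ephrin ligand of arteries, had 4.65, 2.05 and 1.82 CPM in suspension and 33.3, 33.9 and 22.4 CPM in adherent libraries, with no overlap. Bmx, a kinase of arterial endothelium and of myeloid cells, was higher, at 8.86, 13.2 and 16.3 CPM in suspension and 0.23, 0.78 and 0.56 CPM in adherent libraries. The list sum was dominated by Nrp1 and was 92.6 to 120 CPM in suspension and 151 to 166 CPM in adherent libraries.

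Of 44 further genes of the pathway, 39 were tested, of which 11 were higher in suspension, 8 were lower and 20 did not pass, beside 27.1% higher and 29.7% lower over all genes tested. These counts do not set the genes apart. Their median log2 ratio was 0.06. The untested genes were the ligand genes Dll3 and Dlk2, the regulator Dtx1 and the targets Hes5 and Hey2. Dlk2 had no count in suspension and 47 in adherent libraries, which makes it at least 5.55-fold higher in adherent libraries against a floor of 3 counts per suspension library.

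Around the ligands, Dlk1, a non-canonical ligand of fetal stroma, had 2.18, 0.91 and 0.28 CPM in suspension and 7.89, 5.57 and 26.3 CPM in adherent libraries. The groups did not overlap, and the adherent library of day 6 was the highest. Its log2 ratio of -3.57 ± 0.91 (adjusted p = 0.0154) was -4.52 without suspension day 4 and -2.59 without adherent day 6, and was no longer called when suspension day 5 was left out (0.0611). None of the 4 ubiquitin ligases that ligand-sending cells need for signalling passed. Mib1, the most abundant, had 32.5, 36.7 and 31.3 CPM in suspension and 31.8, 32.1 and 37.5 CPM in adherent libraries, which overlapped (log2 ratio -0.01 ± 0.11, adjusted p = 0.942).

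Of the 5 glycosyltransferase genes, whose products modify the receptors' extracellular repeats, 1 was higher and 1 lower. Over all genes tested, 27.1% were higher and 29.7% lower. Lfng, the fringe enzyme that is known to favour signalling by Delta over Jagged ligands, had 31.0, 32.5 and 35.01 CPM in suspension and 4.29, 6.60 and 10.7 CPM in adherent libraries. The groups did not overlap, and the adherent values were highest on day 6. The log2 ratio was 2.19 ± 0.32 (adjusted p = 0.00209). Its adherent slope of 0.66 ± 0.07 log2 per day passed (adjusted p = 0.0120). That call was lost when any one suspension library (0.0516 to 0.0535), adherent day 4 (0.0714) or adherent day 6 (0.114) was left out. Poglut1, the O-glucosyltransferase of Notch, had 15.9, 17.3 and 15.1 CPM in suspension and 24.5, 25.7 and 22.9 CPM in adherent libraries, a log2 ratio of -0.60 ± 0.10 (adjusted p = 0.00383).

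Of 10 genes for the proteases that cut the receptor, 6 were higher in suspension and 0 lower, beside 27.1% higher and 29.7% lower over all genes tested. Whether the list differs from other genes was not tested. Furin, which cuts the receptor on its way to the surface, had 105, 110 and 85.6 CPM in suspension and 37.3, 41.8 and 43.9 CPM in adherent libraries (log2 ratio 1.29 ± 0.13, adjusted p = 0.000708). The groups did not overlap. Psen2, a catalytic subunit gene of gamma-secretase, had 147, 127 and 108 CPM in suspension and 21.7, 31.6 and 47.5 CPM in adherent libraries, so the gap between the fractions was widest on day 4. The log2 ratio of Psen2 was 1.92 ± 0.30 (adjusted p = 0.00243). Aph1c, another gamma-secretase subunit gene, had 45.9, 44.4 and 42.8 CPM in suspension and 5.72, 9.22 and 17.7 CPM in adherent libraries (2.03 ± 0.39, adjusted p = 0.00556). Aph1c has a near-identical neighbour, Aph1b, also higher at 0.64 ± 0.14 log2, and reads may be split between them. The subunit genes Ncstn, Psenen and Aph1a did not pass, with log2 ratios of 0.18, 0.06 and -0.05. Macrophage markers summed to 17546, 15983 and 16904 CPM in suspension, where 8 of 8 were higher, and to 2329, 3000 and 5831 CPM in adherent libraries on days 4, 5 and 6. They were thus higher in suspension with these protease genes and Lfng. In adherent libraries their sum had the same day order as Psen2, Aph1c and Lfng. That sum was dominated by Lyz2, at 1526, 2190 and 4181 CPM in adherent libraries. Csf1r, Adgre1, Cd68, Cd14 and Fcgr1 also rose with each day there. C1qa (440, 410 and 738 CPM) and Mrc1 (137, 122 and 325 CPM) were instead lowest on day 5. Neutrophil markers (225, 748 and 978 CPM) and lymphoid markers (3.25, 7.71 and 8.29 CPM) summed over adherent libraries had the day order of Psen2 too. Their sums were also higher in every suspension library. The part of any of these cells was not tested.

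**Figure D4:**
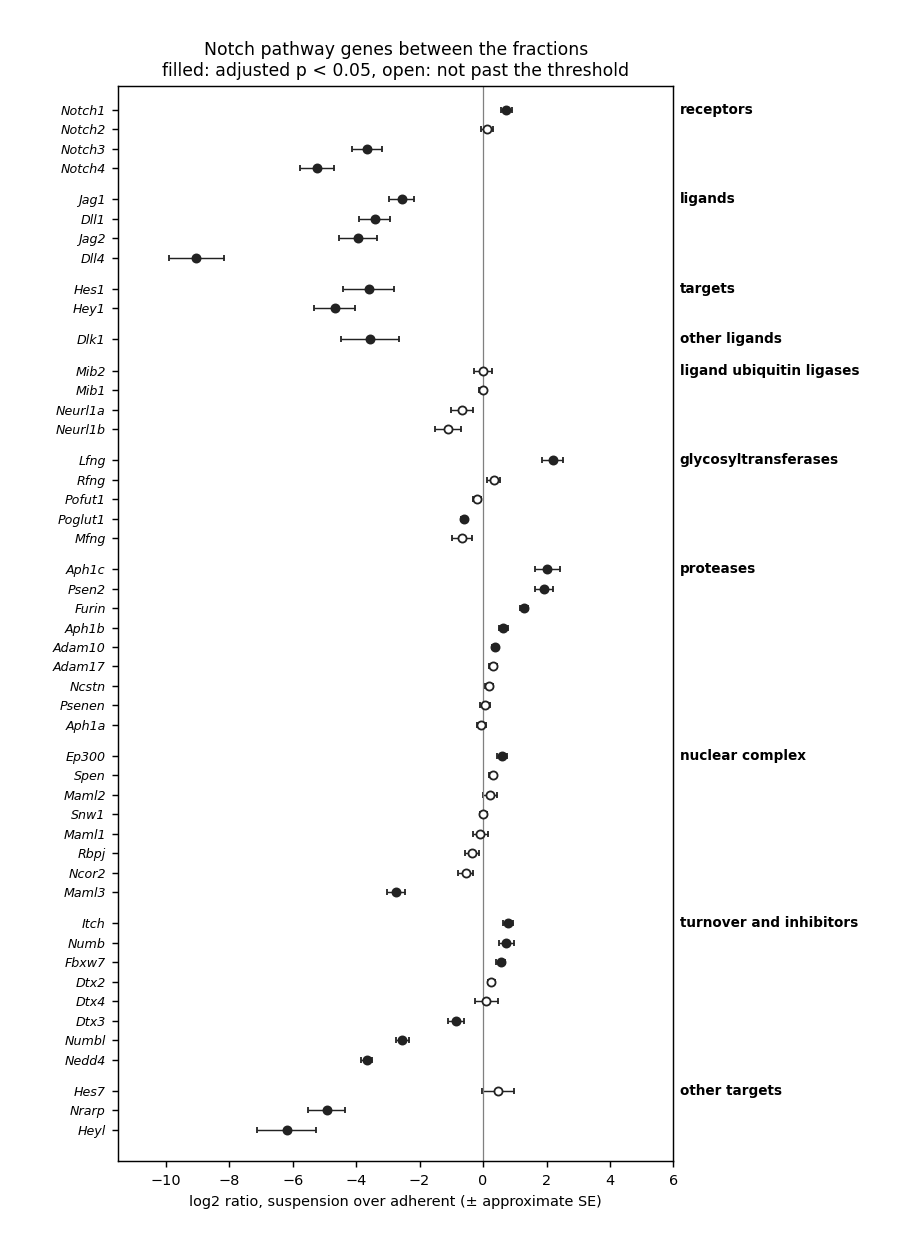
Log2 ratio of suspension to adherent libraries, with approximate SE, for the 10 members and the tested further genes of the pathway with 1 left out, grouped by role; filled symbols passed an adjusted p of 0.05. Ligand genes and most target genes lie to the left (lower in suspension), and the proteases that passed lie to the right.

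In the nuclear complex 1 of 8 genes was higher and 1 was lower, beside 27.1% higher and 29.7% lower over all genes tested. Rbpj, the DNA-binding partner of all Notch receptors, did not pass, at 60.4, 65.4 and 84.9 CPM in suspension and 103, 100 and 63.4 CPM in adherent libraries (log2 ratio -0.34 ± 0.22, adjusted p = 0.234). Maml3, a coactivator of the complex, had 7.31, 5.84 and 3.84 CPM in suspension and 29.6, 41.4 and 42.6 CPM in adherent libraries (-2.74 ± 0.28, adjusted p = 0.000697). Its relatives Maml1 and Maml2 did not pass, at -0.09 and 0.23. Ep300, a histone acetyltransferase recruited to the complex and to many others, had 52.5, 62.1 and 70.6 CPM in suspension and 36.4, 40.5 and 45.5 CPM in adherent libraries (0.60 ± 0.15, adjusted p = 0.0132).

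Of 8 tested genes for turnover and inhibition of the receptor, 3 were higher and 3 lower. The shares over all genes tested were 27.1% higher and 29.7% lower. The ubiquitin ligase gene Nedd4 had 60.7, 57.8 and 43.2 CPM in suspension and 609, 710 and 745 CPM in adherent libraries, without overlap (log2 ratio -3.67 ± 0.18, adjusted p = 0.000342). Numbl, a relative of the Notch inhibitor Numb, had 3.92, 2.72 and 2.65 CPM in suspension and 20.4, 17.4 and 16.4 CPM in adherent libraries (-2.54 ± 0.21, adjusted p = 0.000465). Numb itself was higher in suspension, at 0.74 ± 0.24 log2 (adjusted p = 0.0353), so these related genes had opposite signs.

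Among the other targets, 2 of 3 tested genes were lower in suspension, beside 29.7% of all genes tested. These were Nrarp and Heyl, which passed the filter on low counts through the adherent libraries, so the count is a description only. Nrarp, a target that dampens Notch signalling in return, had 0.15, 0.26 and 0.50 CPM in suspension and 11.3, 12.2 and 4.78 CPM in adherent libraries (log2 ratio -4.93 ± 0.58, adjusted p = 0.00106; -5.54 without suspension day 6). Heyl, a target known from mural cells, had 2 counts in suspension and 167 in adherent libraries, a ratio of 88.7 in favour of adherent libraries with a counting interval at 95% from 24.2 to 738 (adjusted p = 0.00217). Both suspension counts were in the library of day 4, and the fitted log2 ratio of -6.19 was -8.86 without it. Neither gene overlapped between the groups. Hes7 did not pass, at 0.47 ± 0.50 log2.

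The genes whose levels over the 6 libraries were most like each member's were ranked by Pearson's r of log2 CPM among 5913 genes with a mean of at least 20 CPM. Because the libraries fall into the fractions, r is high for many genes that differ between them in the member's direction. For the 9 members called between the fractions, from 343 genes (Notch1) to 1059 genes (Dll4) had an r above 0.9. For Notch2, which was not called, 26 genes did. For Notch1 the leading genes were Mapk3 (r = 0.990) and Adam10 (r = 0.986). ADAM10 is the protease that cuts the receptor at the cell surface. Notch2 was most like Hjurp (0.979) and Uso1 (0.973). Among the lower genes, Notch4 was most like Zfhx3 and Phax, Dll4 like Cdk4 and Plscr3, Hes1 like Sec11a and Mmp14, and Notch3 like Zfp503 and Zbtb20. For Dll1 they were Gclc and Rab12, for Jag1 Rtcb and Flywch1, for Jag2 Poglut1 and Siva1 and for Hey1 Rpl4 and Rps3a1.

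The tables also hold counts on the strand opposite to each gene, which entered the comparisons above only in the alternative with reads on either strand. Notch2 had 12993 antisense counts over the 6 libraries against 7871 sense counts, and Jag1 had 1565 antisense counts, 64.1% of its counts on both strands. Antisense counts exceeded sense counts in 4.88% of all genes tested, and the median gene had 2.99% antisense. For Notch2 the antisense share was 60.3%, 62.1% and 63.9% in suspension and 62.1%, 61.4% and 62.9% in adherent libraries, so the groups overlapped. For Notch4 it was 52.6%, 44.4% and 44.4% in suspension and 4.90%, 2.15% and 6.59% in adherent libraries, where the suspension libraries had 10, 12 and 16 antisense counts beside 9, 15 and 20 sense counts. No gene of the tables overlaps Notch2 or Jag1 on the opposite strand.

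**Figure D5:**
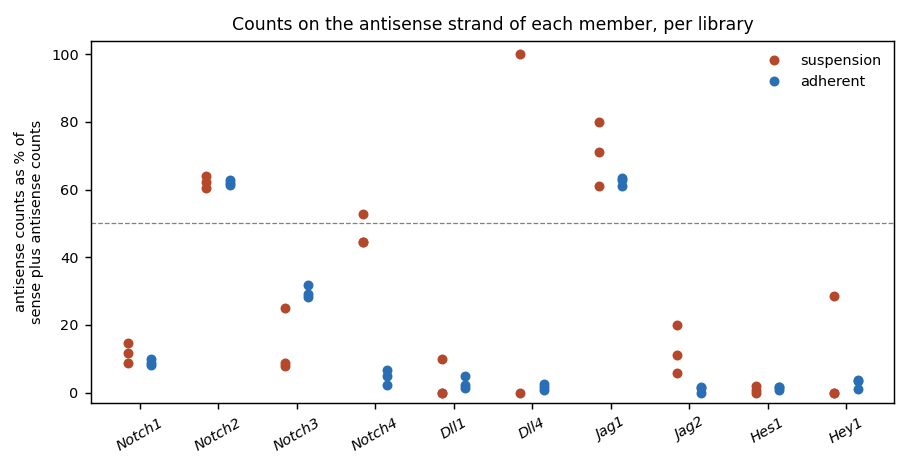
Antisense counts as a percentage of sense plus antisense counts for each member in suspension (red, left) and adherent (blue, right) libraries; the dashed line marks equal counts on both strands. Notch2 and Jag1 lie above 50% in every library; the isolated Dll4 point at 100% in suspension rests on 1 antisense and 0 sense counts.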

How the data were processed

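Sense counts of 6 whole libraries were used. The submitters' processing notes name bcl2fastq, Cell Ranger, STARsolo and the mm10 build; their versions and the annotation were not given in the sources used here. As deposited, the counts are whole reads per gene and not molecules, so an interval or floor covers the counting error of reads only. The intervals pool the libraries of a group and leave out the spread between them. The 4 summary lines of each table, which hold 37.6% to 55.5% of its reads, were left out. Of 31053 identifiers 31011 matched GENCODE M21 (GRCm38, the assembly of mm10), which gave symbols and coordinates, and where 35 symbols were shared the identifier with most counts kept the symbol. Promoter windows are from RefSeq (GRCm38.p6).

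Low counts were filtered with filterByExpr and libraries scaled by TMM in edgeR 4.0.16 under R 4.3.3 (limma 3.58.1); 14912 of 22019 genes with a count remained. Fractions, slopes per day and their difference were tested by quasi-likelihood, with p-values adjusted over all genes tested. The ± after a log2 value is an approximate SE, its size divided by the root of F. Culture days serve as replicates; the labels do not say whether they are separate cultures, so p-values measure the spread between these libraries alone. Deviations of same-day libraries correlated across genes at 0.318, 0.0952 and 0.253 and those of other days at -0.285 to 0.0217, where genes are not independent replicates; the labels give a shared day but no shared culture, and 1 of 3 pairs was under 0.1, so the day was used as a block only as an alternative. Shares were tested with scipy 1.17.1. Alternatives were reads on either strand, DESeq2 1.42.0 scaling and its Wald test, other low-count filters, thinned counts, no globin or mitochondrial genes, and each library left out. The scripts were tested on simulated data.

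The members, gene lists and tests were chosen with earlier results of these data known. The further pathway genes named are, in each list, the 2 called genes with the lowest adjusted p, or the most abundant gene where none was called, of which 1 is not reported here; Psen2, Aph1c and the other pathway or marker genes given with values were chosen after their values were seen.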

Additional observations from a re-analysis of the deposited data

Results flagged for a closer look

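The course over the days differed between the fractions for 2 further genes of the pathway, both of gamma-secretase. The slope of Psen2 in suspension minus that in adherent libraries was -0.79 ± 0.08 log2 per day (adjusted p = 0.0485 by edgeR's test of the interaction), from slopes of -0.22 and 0.57. For Aph1c the difference was -0.87 ± 0.10 (adjusted p = 0.0485), from slopes of -0.05 and 0.82. Of all genes tested, 0.463% had a lower slope in suspension. The Psen2 call was lost without globin and mitochondrial genes (0.0585) and when any single library other than adherent day 5 was left out, and so was the Aph1c call, which was also lost with reads on either strand (0.0503).

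Each member had more than 3 counts in all on its antisense strand, a column used only in the alternative with reads on either strand. For Jag2 no single library had more than 3. The antisense totals over the 6 libraries were 915 for Notch1, 12993 for Notch2, 307 for Notch3 and 99 for Notch4. They were 9 for Dll1, 27 for Dll4, 1565 for Jag1 and 8 for Jag2, and 100 for Hes1 and 10 for Hey1. Those of Notch2 and Jag1 exceeded the sense counts. Opposite-strand genes in the tables overlap Notch3 (Gm17276, with 27 sense counts) and Dll1 (A930024N18Rik, with 21).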

How the results depend on the processing

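All 9 member calls between the fractions held wherever the gene was tested. For members that passed the low-count filter through the adherent libraries, this is a description only. With the culture day as a replicate block, members gave 1 higher and 8 lower call and the further pathway genes 12 higher and 8 lower, so the block moved no count by over 1.5 times. Requiring 10 CPM or more in 3 libraries tested 3 members, of which 1 was lower, and left 5 further genes lower because fewer genes were tested. Leaving out 1 library at a time gave 0 to 1 members falling in adherent libraries, 0 to 1 falling in suspension, and 0 to 1 with a higher and 0 to 1 with a lower slope in suspension than in adherent libraries. The member falling in adherent libraries was not Notch2 when adherent day 4 was left out. DESeq2, and edgeR with no low-count filter, each called 1 member falling in suspension (Hes1), 1 with a higher slope difference (Notch2) and 1 with a lower one (Hes1); the cause was not tested. With reads on either strand, differences in share were 13.2 points for Notch1, -9.87 for Notch4 and -37.4 for Dll4, and those of Dll1 (-3.63) and Jag2 (-3.38) turned sign, where antisense counts of Notch2 and Jag1 enter the sums. Relative to the endothelial markers Notch2 was then at 8.89% and Jag1 at 1.74%. Without 1 library the share difference ran from -0.64 to 8.25 for Notch2 and from -3.50 to 2.69 for Jag2. The log2 ratio of Notch2 was -0.032 with at least 10 CPM in 3 libraries and -0.028 to 0.27 without 1 library, and that of Mib1 0.0058 with thinned counts and -0.12 to 0.074 without 1 library; neither gene was called in any of these. Among values of single genes under an alternative, 398 kept direction and side of the threshold, 27 lost a call, 12 gained one and 6 turned sign. A count of 0 in a library allows up to 3 counts, which limits the levels of Dll4 and Heyl in suspension.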
